A study of Bos taurus with 6 samples.

Results

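The MAPK feedback phosphatases and Sprouty proteins described here are 10 genes whose products shut off signalling through the mitogen-activated protein kinases (MAPKs). They are the phosphatases DUSP1, DUSP4, DUSP5, DUSP6, DUSP7 and DUSP10, the Sprouty genes SPRY2 and SPRY4, and the Sprouty-related genes SPRED1 and SPRED2. The members were selected on the difference between transgenic and wild-type cells in the same libraries, so their FPKM values, counts and fold changes are given as a description, with no p-value. All 10 were found by symbol among the 17663 genes of the deposited table, and 10 of the 13482 genes with enough counts to be tested were members. DUSP4 reached the minimum count rate of that filter in 3 of 3 transgenic and 0 of 3 wild-type libraries, and each of the other 9 members reached it in all 6.

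RNA was measured in bovine fetal fibroblasts (bEFs), connective tissue cells in primary culture from the body tissue of cattle fetuses at 50–60 days of gestation. FT cells came from 3 fetuses carrying the exogenous fat-1 gene of the nematode Caenorhabditis elegans, which encodes a desaturase that turns n-6 into n-3 polyunsaturated fatty acids, and the controls, WT cells, from 3 wild-type fetuses of Luxi cattle at the same age. The paper names the fetuses as the poly(A) libraries are named, so each library is taken to come from 1 fetus, with n = 3 per group and no pooling mentioned. The breed of the FT fetuses and the promoter that drives the transgene are not stated, so a difference of breed cannot be told apart from the transgene. The comparison of FT with WT cells addresses which transcripts differ in cells that carry the transgene.

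When a growth factor binds its receptor tyrosine kinase, RAS activates the kinase chain RAF, MEK and ERK, and ERK then phosphorylates targets in the cytoplasm and the nucleus. Dual-specificity MAPK phosphatases (the DUSP genes) remove the phosphates from both the threonine and the tyrosine of the activating site of MAPKs, and many are transcribed in response to the very kinases they switch off. Sprouty and SPRED proteins act higher up, between the receptor and RAF, and SPRED proteins bring the RAS inactivator neurofibromin to the membrane.

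Counts summed to 63366834, 48167642 and 54204446 in libraries FT_1, FT_2 and FT_3, and to 69777641, 51310741 and 54271927 in libraries WT_1, WT_2 and WT_3. The 10 members together drew 20512–26161 of these counts in FT libraries and 18204–25006 in WT libraries. Library FT_1 stood apart from the rest of its group. Variation between replicate libraries past what counting alone gives (edgeR's biological coefficient of variation) was 56.9% for FT_1 against FT_2 and 57.6% for FT_1 against FT_3, but 8.23% for FT_2 against FT_3 and 9.99–13.4% for pairs of WT libraries. Fold changes and counts without FT_1 therefore stand beside those from all 6 libraries.

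Markers of the labelled cell type were present in every library, and 14 of 14 fibroblast markers were in the table. Their summed level was 8896, 20527 and 19848 FPKM in FT_1, FT_2 and FT_3, and 21566–22038 in WT libraries, and the most abundant by mean level was vimentin (VIM) with 1244, 3850 and 4171 FPKM in the FT libraries and 7312–8178 in the WT libraries. Of the 14 fibroblast markers, 2 rose (14.3%, beside 20.1% of all genes), 0 fell (beside 18.9%) and 12, VIM among them, did not pass the test. Every FT library lay above every WT library in FPKM for 2 markers, beside 21.8% of all genes, and below for 5, beside 36.9%. Without FT_1, where more of all genes were called as well, 7 markers rose and 2 fell. VIM was then among the falls (log2 fold change −0.79 ± 0.07, edgeR adjusted p = 1.06e-05). With all libraries VIM was called lower by DESeq2 (adjusted p = 0.0128) and by limma with a filter (0.0462 and 0.0454), but not by limma without one (0.133). The 10 epithelial markers summed to 457 FPKM in FT_1 and 8.05–16.2 in the other 5 libraries. Their most abundant gene by mean level, the keratin KRT5, had 172, 2.57 and 1.63 FPKM in FT_1, FT_2 and FT_3, and was listed at 0 in the WT libraries. The 6 mesothelial markers in the table, of 8 listed, summed to 348, 47.5 and 48.1 FPKM in FT_1, FT_2 and FT_3 against 2.39–3.69 in WT libraries, led by MSLN with 199, 44.9 and 46.2 against 2.08–3.18 FPKM. The 10 smooth muscle and pericyte markers summed to 2530, 3837 and 3693 FPKM in FT libraries against 1110–1238 in WT libraries, led by ACTA2 with 1372, 2421 and 2378 against 503–627 FPKM. Endothelial markers (9 of 10 in the table) summed to 7.24 FPKM in FT_1, led by ERG, and to 1.02–2.93 elsewhere, and skeletal myoblast markers (6 of 10) to 3.80–5.81 in FT and 1.32–2.08 in WT libraries, with DES at 3.17–5.74 FPKM in FT and 0–0.07 in WT libraries. DES alone made the FT sum the higher one; the other myoblast markers summed to less in every FT than in every WT library. Blood cell markers (7 of 11) summed to 5.17–10.3 FPKM in FT and 23.1–24.7 in WT libraries, with LAPTM5 at 0.92–6.26 and 15.4–16.6, and neural crest and glial markers (7 of 10), led by S100B, to 7.97–14.1 and 12.7–15.3. In bulk RNA, fewer cells of a type and less RNA per cell cannot be told apart, and the part of these marker differences in the members' values was not tested.

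Among the 10 members, the phosphatase genes DUSP7 and DUSP4, the SPRED gene SPRED2 and, to a smaller degree, DUSP1 had more RNA in FT than in WT cells, whereas DUSP5 had less. DUSP6 and SPRED1 had lower FPKM in every FT than in every WT library but were not called (log2 fold changes −0.62 ± 0.24 and −0.37 ± 0.14). SPRY2 and SPRY4 overlapped between the groups, and DUSP10 had a higher FPKM in FT_2 and FT_3 but not in FT_1. By the edgeR test (adjusted p under 0.05 over all genes tested), 5 members were called higher in FT cells, against 20.1% of all genes tested, and 1 was called lower, against 18.9%. In FPKM, every FT library lay above every WT library for 4 members, against 21.8% of all genes, and below every WT library for 3, against 36.9%. Under the study's threshold (unadjusted p under 0.05, log2 fold change past 1 in either direction), 2 members were higher, DUSP4 and DUSP7, against 10.2% of all genes, and 1 was lower, DUSP5, against 8.96%. Because the members were chosen from this comparison, nothing is read from these counts. The median log2 fold change was 0.17 over the members and 0.03 over all genes tested. Without FT_1, 5 members were called higher and 3 lower, beside 4215 and 4337 of the 13765 genes then tested. Without WT_1, 2 were called higher (DUSP7 and SPRED2) and 1 lower (DUSP5), beside 1516 and 1531 of 13804 genes.

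**Figure D1:**
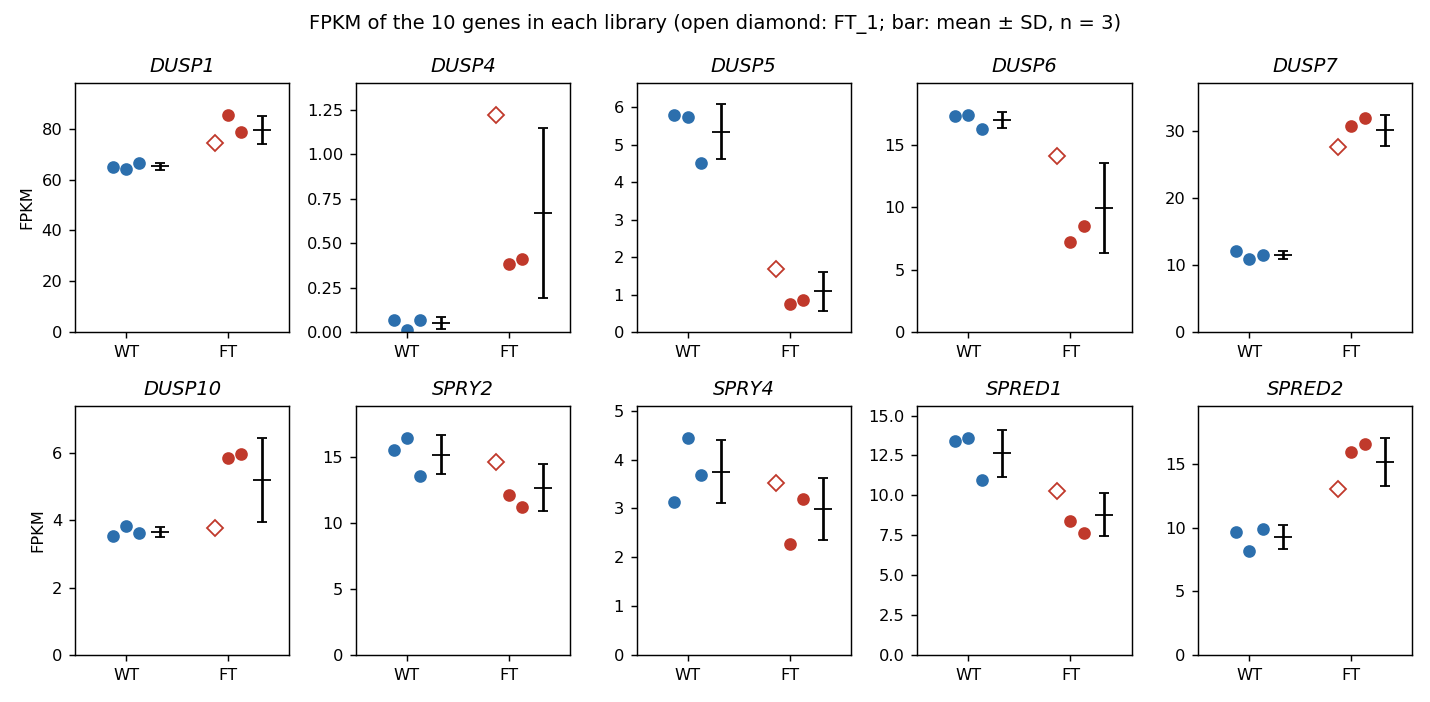
Level of each of the 10 genes in FPKM (vertical axes, each from 0) in the 3 WT and 3 FT libraries (points; the open diamond is FT_1), with the group mean and SD as a bar. DUSP7 lies between 27.6 and 32.1 FPKM in FT libraries and between 10.9 and 12.1 in WT libraries, whereas the FT_1 value of DUSP10, 3.76, falls among the WT values.

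The members covered a wide range of levels. DUSP1 was the most abundant in both groups, with mean levels of 79.6 FPKM in FT and 65.3 in WT cells, and DUSP4 the least abundant, with 0.67 and 0.05 FPKM. In WT cells the order below DUSP1 was DUSP6, SPRY2, SPRED1, DUSP7, SPRED2, DUSP5, SPRY4, DUSP10 and DUSP4. Within this order the WT libraries of DUSP6 and SPRY2, of SPRY2 and SPRED1, of SPRED1 and DUSP7, and of SPRY4 and DUSP10 overlapped in range, although DUSP6 exceeded SPRY2, and SPRY2 exceeded SPRED1, within each of the 3. In FT cells the order was DUSP1, DUSP7, SPRED2, SPRY2, DUSP6, SPRED1, DUSP10, SPRY4, DUSP5 and DUSP4, and there the neighbours from SPRED2 to SPRED1 overlapped in range, as did DUSP5 and DUSP4; within each FT library SPRY2 exceeded DUSP6 and DUSP5 exceeded DUSP4. DUSP7 thus stood at place 5 in WT and place 2 in FT cells, and DUSP6 at place 2 in WT and place 5 in FT cells. The deposited table annotated all 6 phosphatase genes to the KEGG MAPK signalling pathway and none of the 4 Sprouty and SPRED genes.

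DUSP1, DUSP4 and DUSP5 encode the inducible phosphatases of the nucleus. DUSP1 (ENSBTAG00000013863, chromosome 20, 4540518–4543611, minus strand) acts on p38 and JNK as well as ERK and is an immediate early gene of stress and growth factor responses. Gene positions are those of the deposited table, whose genome build is not named. DUSP1 had 74.4, 85.4 and 78.9 FPKM in FT_1, FT_2 and FT_3, against 64.9, 64.2 and 66.7 in WT_1, WT_2 and WT_3. All FT libraries lay above all WT libraries, and the WT values sat close together. The group means were 79.6 ± 5.56 FPKM in FT and 65.3 ± 1.27 in WT cells (SD, n = 3 each), a log2 fold change of 0.45 ± 0.09 (SE), or 1.36-fold. It was 0.50 ± 0.06 without FT_1, and the call was lost without WT_1, where the log2 fold change was 0.44.

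DUSP4 (ENSBTAG00000044208, chromosome 27, 25679478–25693390, minus strand), a nuclear phosphatase of ERK and JNK, was close to the detection limit in WT cells. It had 1.22, 0.38 and 0.41 FPKM in FT_1, FT_2 and FT_3, against 0.07, 0.01 and 0.07 in the WT libraries. These levels rested on 183, 43 and 52 counts in FT_1, FT_2 and FT_3 and on 12, 2 and 10 counts in WT_1, WT_2 and WT_3. The groups did not overlap, and within the FT group FT_1 had 3.09 times the mean level of FT_2 and FT_3. The means were 0.67 ± 0.477 and 0.05 ± 0.0346 FPKM (SD, n = 3 each), and the log2 fold change was 3.69 ± 0.78, or 12.9-fold. It was 2.93 ± 0.66 without FT_1, and the call was lost without WT_1 (3.92) and with limma without a filter (0.63). Filters on mean level left DUSP4 untested, and it passed the count filter through the FT libraries alone, so its call is conditional on a high level there.

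DUSP5 (ENSBTAG00000020283, chromosome 26, 31062738–31075701, plus strand), a nuclear phosphatase with a preference for ERK, went the other way. Its level was 1.69, 0.74 and 0.85 FPKM in FT_1, FT_2 and FT_3, against 5.79, 5.75 and 4.51 in the WT libraries. Every FT library lay below every WT library, and FT_1 was nearest to the WT group. The underlying counts were 287, 95 and 123 in FT libraries and 1075, 787 and 652 in WT libraries. Mean levels were 1.09 ± 0.520 and 5.35 ± 0.728 FPKM (SD, n = 3 each), giving a log2 fold change of −2.14 ± 0.35, or 4.40-fold more in WT cells. It was −2.58 ± 0.17 without FT_1.

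DUSP6 and DUSP7 encode cytoplasmic phosphatases specific for ERK, and DUSP6 is a widely used transcript readout of fibroblast growth factor and ERK activity. DUSP6 (ENSBTAG00000004587, chromosome 5, 19213683–19217415, minus strand) had 14.1, 7.21 and 8.51 FPKM in FT_1, FT_2 and FT_3, against 17.3, 17.4 and 16.2 in the WT libraries. The WT libraries were tightly grouped, FT_2 and FT_3 lay near each other, and FT_1 lay between them and the WT group without overlap. The means were 9.93 ± 3.64 and 17.0 ± 0.644 FPKM (SD, n = 3 each). The log2 fold change was −0.62 ± 0.24 with all 6 libraries, which was not called, and −0.94 ± 0.10 without FT_1, which was called. With all libraries DUSP6 was also called by limma on log2(FPKM + 1) and log2(FPKM + 0.1).

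DUSP7 (ENSBTAG00000021912, chromosome 22, 48825120–48832342, plus strand) had 27.6, 30.8 and 32.1 FPKM in FT_1, FT_2 and FT_3, against 12.1, 10.9 and 11.5 in the WT libraries. Here FT_1 sat with the other FT libraries and all 3 lay far above the WT group. The means were 30.2 ± 2.27 and 11.5 ± 0.580 FPKM (SD, n = 3 each), with a log2 fold change of 1.55 ± 0.10, or 2.93-fold. Without FT_1 it was 1.62 ± 0.07.

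The pair thus changed places between the groups. The ratio of DUSP7 to DUSP6 FPKM was 1.97, 4.27 and 3.77 in FT_1, FT_2 and FT_3, against 0.696, 0.628 and 0.706 in the WT libraries. DUSP7 was the more abundant of the 2 in every FT library and DUSP6 in every WT library. DUSP6 made up 19.0–33.7% of their summed FPKM in FT cells and 58.6–61.4% in WT cells. That sum was 41.7, 37.98 and 40.6 FPKM in FT libraries and 29.4, 28.3 and 27.7 in WT libraries, with no overlap.

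DUSP10 (ENSBTAG00000001729, chromosome 16, 25186203–25227307, minus strand) encodes a phosphatase that prefers p38 and JNK to ERK. Its level was 3.76, 5.85 and 5.97 FPKM in FT_1, FT_2 and FT_3, against 3.52, 3.82 and 3.63 in the WT libraries. FT_2 and FT_3 were above all WT libraries, while FT_1 lay inside the WT range, so the groups overlapped in FPKM. With the scaling factors behind the fold change, which FPKM lacks, FT_1 also stood above all WT libraries. The means were 5.19 ± 1.24 and 3.66 ± 0.152 FPKM (SD, n = 3 each), and the log2 fold change was 0.67 ± 0.21. It was 0.87 ± 0.10 without FT_1, and DUSP10 was called in 5 of the 19 other settings. The call was lost without FT_2, FT_3, WT_1, WT_2 or WT_3, where the log2 fold change was 0.58, 0.55, 0.64, 0.70 and 0.66.

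Summed over the 6 phosphatase genes, the level was 123, 130.4 and 127 FPKM in FT_1, FT_2 and FT_3, against 104, 102 and 103 in the WT libraries. The groups did not overlap, with means of 127 ± 3.82 and 103 ± 0.802 FPKM (SD, n = 3 each). DUSP1 supplied 60.6–65.5% of the sum in FT and 62.6–65.0% in WT libraries, so its share was alike in the groups. Its level was also higher in FT cells, and in the remainder DUSP7 held the largest part in FT libraries and DUSP6 in WT libraries.

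**Figure D2:**
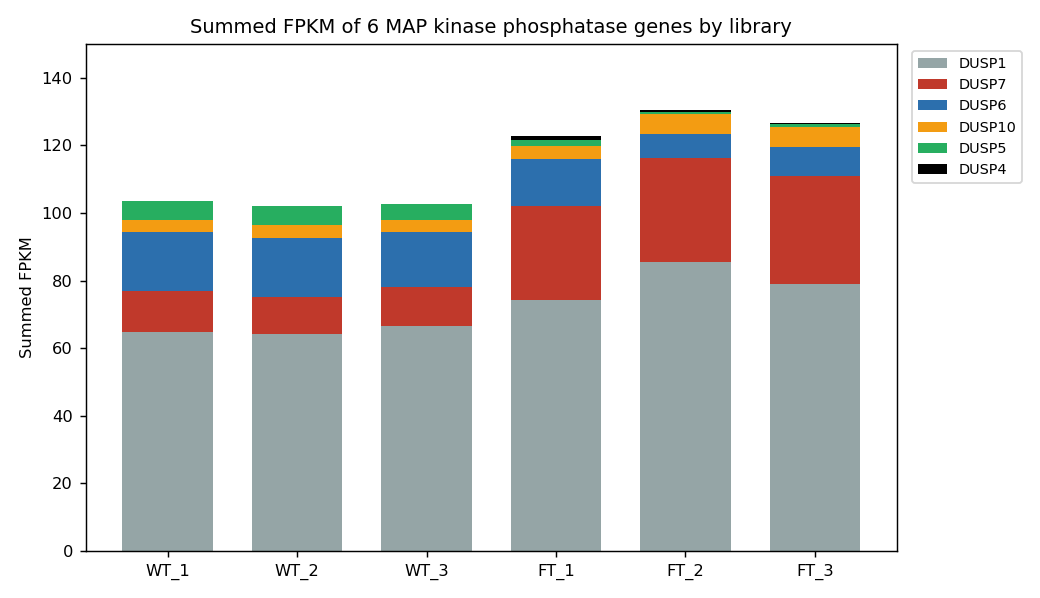
Summed FPKM (vertical axis, from 0) of the 6 phosphatase genes in each library, with each gene as a coloured part of the bar. The bars reach 123–130.4 FPKM in FT and 102–104 in WT libraries; the DUSP7 part is 27.6–32.1 FPKM in FT against 10.9–12.1 in WT libraries.

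Sprouty proteins are membrane-linked inhibitors of receptor tyrosine kinase signalling whose genes are themselves induced by ERK. SPRY2 (ENSBTAG00000001774, chromosome 12, 55341982–55343875, minus strand) had 14.6, 12.1 and 11.2 FPKM in FT_1, FT_2 and FT_3, against 15.5, 16.4 and 13.5 in the WT libraries. FT_1 lay above WT_3, so the groups overlapped. The means were 12.6 ± 1.76 and 15.1 ± 1.47 FPKM (SD, n = 3 each), and the log2 fold change of −0.10 ± 0.13 was smaller than its error. SPRY4 (ENSBTAG00000008250, chromosome 7, 53339584–53351162, minus strand) had 3.51, 2.28 and 3.19 FPKM in FT libraries and 3.14, 4.44 and 3.68 in WT libraries. Its lowest WT library, WT_1, lay below FT_1 and FT_3. The means were 2.99 ± 0.638 and 3.75 ± 0.653 FPKM (SD, n = 3 each), with a log2 fold change of −0.17 ± 0.23. Neither Sprouty gene was called with all libraries, and without FT_1 the log2 fold changes were −0.21 ± 0.10 and −0.28 ± 0.20. SPRY2 supplied 77.9–84.1% of the Sprouty pair's summed FPKM in FT and 78.6–83.2% in WT libraries. In the deposited table the SPRY4 interval also held the short RNA genes RF02038 and RF02039, and the SPRED1 interval held RF00156; how reads shared by such genes were assigned is not stated.

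SPRED1 and SPRED2 encode inhibitors of RAS activation that work with neurofibromin. SPRED1 (ENSBTAG00000032518, chromosome 10, 33847959–33966943, plus strand) had 10.3, 8.40 and 7.65 FPKM in FT_1, FT_2 and FT_3, against 13.4, 13.6 and 10.95 in the WT libraries. All FT libraries lay below all WT libraries in FPKM, but FT_1 and WT_3 were close. With the scaling factors behind the fold change, FT_1 stood above WT_3, so the groups overlapped in scaled counts. The means were 8.77 ± 1.35 and 12.6 ± 1.47 FPKM (SD, n = 3 each). The log2 fold change was −0.37 ± 0.14 with all libraries, not called, and −0.49 ± 0.11 without FT_1, called. With all libraries SPRED1 was also called under library totals, with the gene length trend removed and in the limma settings.

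SPRED2 (ENSBTAG00000019456, chromosome 11, 63679273–63801394, minus strand) showed the opposite order, with 13.0, 15.9 and 16.5 FPKM in FT_1, FT_2 and FT_3, against 9.66, 8.19 and 9.93 in the WT libraries. The groups did not overlap. The means were 15.2 ± 1.89 and 9.26 ± 0.936 FPKM (SD, n = 3 each), with a log2 fold change of 0.87 ± 0.14, or 1.83-fold, and of 0.98 ± 0.10 without FT_1.

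The SPRED pair changed places as well. The ratio of SPRED2 to SPRED1 FPKM was 1.27, 1.90 and 2.16 in FT libraries and 0.721, 0.603 and 0.907 in WT libraries. SPRED2 was the more abundant in every FT library and SPRED1 in every WT library. Their summed level was 23.3, 24.3 and 24.2 FPKM in FT and 23.1, 21.8 and 20.9 in WT libraries, with means of 23.9 ± 0.572 and 21.9 ± 1.10 (SD, n = 3 each), and the lowest FT sum lay just above the highest WT sum. SPRED2 supplied 55.9–68.4% of this sum in FT and 37.6–47.6% in WT cells.

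The place of FT_1 differed from member to member. Its FPKM was 3.09 times the mean of FT_2 and FT_3 for DUSP4, 2.13 times for DUSP5 and 1.79 times for DUSP6. For SPRY4, SPRED1 and SPRY2 it was 1.25–1.28 times that mean. It was 0.905 times the mean for DUSP1, 0.880 for DUSP7, 0.801 for SPRED2 and 0.636 for DUSP10. For 9 of the 10 members FT_1 thus lay on the WT side of FT_2 and FT_3, and dropping it moved the log2 fold change away from 0. DUSP4 was the exception, with FT_1 farthest from the WT group. The epithelial marker sum of 457 FPKM and the mesothelial sum of 348 FPKM set FT_1 apart in the same data, and their part in its member values was not tested.

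**Figure D3:**
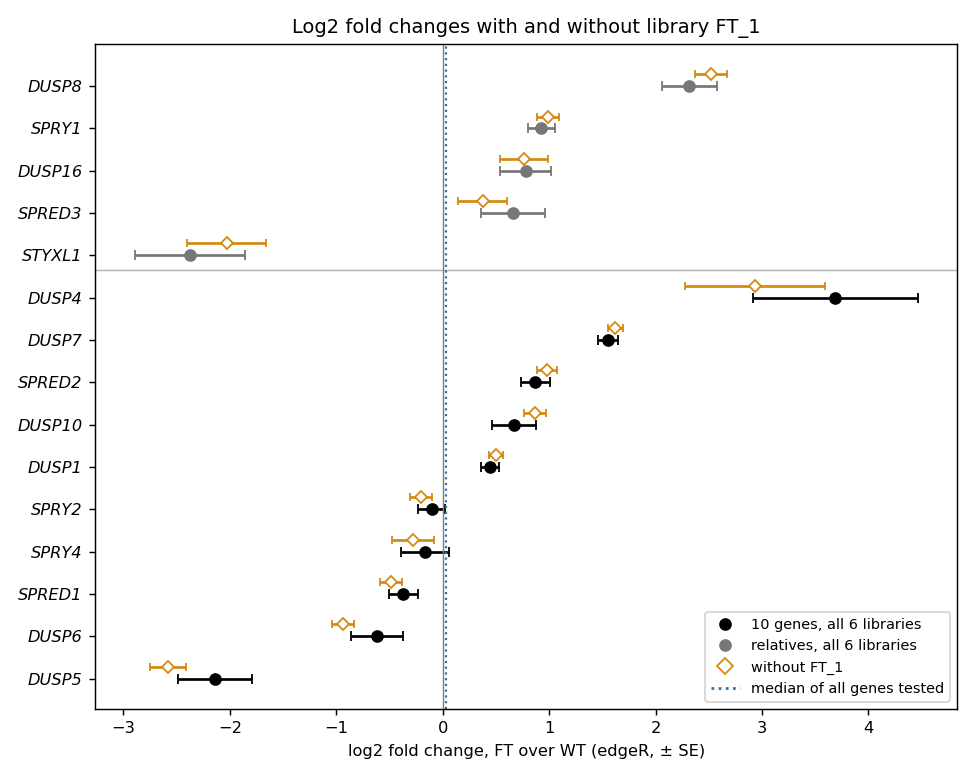
Log2 fold change of FT over WT (horizontal axis, edgeR, bars ± SE) for the 10 genes (black) and 5 relatives (grey) with all 6 libraries, and without FT_1 (open diamonds), beside the median of all genes tested (dotted line, 0.03). The estimates of the 10 genes run from −2.14 for DUSP5 to 3.69 for DUSP4, those of the relatives from −2.37 for STYXL1 to 2.32 for DUSP8, and no estimate changes sign without FT_1.

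Among the closest relatives of the members, 6 of 8 listed genes were in the table and 5 were tested, of which 3 rose, 1 fell and 1 did not pass the test; p-values here measure spread between these libraries, each from a separate fetus. DUSP8, a phosphatase of JNK and p38, rose from 1.0, 1.38 and 0.98 FPKM in WT libraries to 3.58, 5.42 and 5.91 in FT libraries (log2 fold change 2.32 ± 0.26, edgeR adjusted p = 0.00179, higher in 3 of 3 FT libraries). SPRY1, which had more RNA than either Sprouty member, rose from 31.8, 30.2 and 37.9 FPKM to 52.7, 63.1 and 54.4 (0.93 ± 0.13, adjusted p = 0.00317, no overlap). The JNK phosphatase gene DUSP16 rose from 1.86, 1.11 and 1.39 FPKM to 2.32, 2.34 and 2.07 (0.78 ± 0.24, adjusted p = 0.0447). STYXL1, a relative without phosphatase activity, fell from 2.17, 2.13 and 3.21 FPKM to 0.19, 0.70 and 0.39 (log2 fold change −2.37 ± 0.52, adjusted p = 0.0152). The third SPRED gene, SPRED3, did not pass the test (0.66 ± 0.30, adjusted p = 0.133), and DUSP2 had too few counts to be tested. The call of DUSP16 was lost without FT_2, FT_3, WT_2 or WT_3 (adjusted p = 0.115, 0.089, 0.119 and 0.133), and with library totals (0.0831), upper-quartile scaling (0.0511), all genes with a count (0.0636), limma (0.0611–0.0877) or the replicate block (0.0904), and that of STYXL1 without FT_3 or WT_3 (0.0529 and 0.0591). Without FT_1 the log2 fold changes were 2.52 ± 0.15 for DUSP8, 0.99 ± 0.10 for SPRY1, 0.76 ± 0.22 for DUSP16, −2.03 ± 0.37 for STYXL1 and 0.38 ± 0.23 for SPRED3. With SPRY1 included, the Sprouty family held a gene that rose beside SPRY2 and SPRY4, whose groups overlapped; the difference between family members was not tested.

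The relatives above, the other genes of the pathway and general regulators of mRNA decay were taken from lists made by role. Of the 221 genes in these lists, 199 were tested, and 64 rose (32.2%, beside 20.1% of all genes) while 28 fell (14.1%, beside 18.9%), with a median log2 fold change of 0.28 beside 0.03. The lists were made with earlier results of these data known, so these shares are a description and nothing is read from their distance to those of all genes. Leaving out 1 library moved these counts to 92 and 53 without FT_1, 52 and 17 without FT_2, 35 and 14 without WT_1, 34 and 15 without WT_2, and 43 and 15 without WT_3. Over all genes tested, 2714 rose and 2547 fell, and the counts were 4215 and 4337 without FT_1, with 2701 of the 2714 and 2543 of the 2547 shared; they were 1516 and 1531 without WT_1, 1613 and 1570 without WT_2, and 1796 and 1741 without WT_3. With library totals in place of TMM factors, 2049 genes rose and 3394 fell and the median over all genes was −0.12, and limma on log2(FPKM + 1) gave 1837 and 3573. For the role lists the split was then closer to even, with 53 rises and 35 falls under library totals, 48 and 42 under limma, and 44 and 38 under limma without a filter.

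Upstream of the members, 8 of 18 growth factors rose and 2 fell (median log2 fold change 1.14), and 7 of 18 receptor tyrosine kinases rose and 11 did not pass the test (median 0.97). The largest fall among the growth factors was that of FGF2, a fibroblast mitogen (log2 fold change −1.02 ± 0.10, adjusted p = 0.00134, lower in 3 of 3 FT libraries; −0.98 ± 0.09 without FT_1). The largest rise was that of the ERBB ligand NRG1, with 10.8, 0.24 and 0.20 FPKM in FT_1, FT_2 and FT_3 against 0–0.07 in WT libraries (6.86 ± 2.14, adjusted p = 0.0474). With 15, 4 and 0 counts in WT libraries, NRG1 passed the count filter through its FT libraries, so its call is conditional on a high level there. Its log2 fold change was 2.82 ± 0.90 without FT_1 (adjusted p = 0.0209). NRG1 was not called without WT_1, WT_2 or WT_3 (adjusted p = 0.115, 0.156 and 0.137), with all genes with a count (0.0561) or by limma (0.14–0.34). The collagen receptor DDR1 had the largest rise among the receptors (2.58 ± 0.53, adjusted p = 0.012), with 36.5, 10.8 and 10.5 FPKM in FT_1, FT_2 and FT_3 against 3.50–3.67 in WT libraries; it was 1.74 ± 0.08 without FT_1, and the call was lost without WT_1, WT_2 or WT_3 (0.0569, 0.0578 and 0.053). Leaving out 1 library gave 3–10 growth factors and 3–11 receptors called higher, most without FT_1 and fewest without WT_1, and 3 of each called lower without FT_1.

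In the chain from receptor to ERK, 10 of 26 adaptors, RAS genes and RAS regulators rose and 5 fell, as did 6 and 2 of 19 ERK cascade kinases and scaffolds. The RAS exchange factor RASGRF1 had the largest fall of the RAS list, from 1.90–2.03 FPKM in WT to 0.02, 0.26 and 0.31 in FT libraries (log2 fold change −3.14 ± 0.83, adjusted p = 0.0287; −2.60 ± 0.16 without FT_1), with the call lost without FT_2, WT_1, WT_2 or WT_3 (adjusted p = 0.0663, 0.0848, 0.084 and 0.0824) or with the replicate block (0.0591). Its paralogue RASGRF2 had the largest rise, though at 0.28–0.46 FPKM in FT and 0–0.02 in WT libraries (adjusted p = 0.0144, 1.04e-04 without FT_1, 0.0507 without WT_2 and 0.0519 with the replicate block). With 10, 0 and 0 counts in WT libraries, RASGRF2 passed the count filter through the FT libraries alone, so its call is conditional on a high level there. Of the kinases, MKNK2, which acts on the translation factor eIF4E, fell (−0.82 ± 0.09, adjusted p = 0.00194, 3 of 3 FT libraries lower; −0.84 ± 0.08 without FT_1), and the ERK effector kinase RPS6KA1 rose by 2.39 ± 0.50 on the log2 scale (adjusted p = 0.013), or 1.65 ± 0.18 without FT_1, and was not called without WT_1, WT_2 or WT_3 (0.0585, 0.0539 and 0.0589) or by limma without a filter (0.0541). ERK1 itself (MAPK3), the substrate of DUSP6 and DUSP7 and named after its values were seen, rose by 1.03 ± 0.07 (adjusted p = 5.78e-04; 1.03 ± 0.06 without FT_1). Without 1 library, 3–13 genes of the RAS list and 3–10 of the ERK list rose, most without FT_1, and 1–7 and 2–3 fell; limma on log2(FPKM + 1) gave 5 rises and 7 falls in the RAS list.

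DUSP1 and DUSP10 switch off the stress kinases JNK and p38. The list of JNK and p38 cascade kinases also holds kinases upstream and downstream of these, and scaffolds. Of its 26 tested genes, 9 rose and 7 fell (median log2 fold change 0.03), and without 1 library 6–10 rose and 2–9 fell. The upstream kinase MAP3K5 rose by 2.17 ± 0.41 (adjusted p = 0.0091; 1.58 ± 0.12 without FT_1), and the p38 activator MAP2K6 fell (log2 fold change −1.59 ± 0.41, adjusted p = 0.0266; −1.24 ± 0.14 without FT_1), with its call lost without FT_2, WT_1, WT_2 or WT_3 (0.0543, 0.0798, 0.0897 and 0.0735). Of 11 atypical dual-specificity phosphatases, which lack the MAPK-binding domain of the members, 1 rose and 2 fell, so 8 did not pass the test; DUSP26 had the largest rise (2.67 ± 0.45, adjusted p = 0.00648; 2.77 ± 0.49 without FT_1) and DUSP12 the largest fall (−0.65 ± 0.14, adjusted p = 0.0131; −0.74 ± 0.12 without FT_1; 0.0574 without WT_1 and 0.0518 without WT_3). Without FT_1, 4 of these rose and 3 fell, and without WT_1 or WT_3, 1 was called, a rise; with the gene length trend removed 3 rose and 1 fell.

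Among 32 genes that ERK activity induces or that respond within minutes to growth factors, 6 rose (18.8%, beside 20.1% of all genes), 3 fell (9.38%, beside 18.9%) and 23 did not pass the test, with 12 and 10 called without FT_1 and 4 rises without FT_2, FT_3 or WT_2; limma on log2(FPKM + 1) gave 5 and 8. FOS, the AP-1 subunit, rose from 6.56, 5.87 and 8.75 FPKM in WT libraries to 34.7, 49.9 and 41.8 in FT libraries (log2 fold change 2.74 ± 0.22, adjusted p = 8.5e-04). ATF3, a stress-induced factor of the same class, fell from 24.8, 25.8 and 24.0 to 7.09, 5.47 and 5.25 FPKM (−1.91 ± 0.13, adjusted p = 6.38e-04). Without FT_1 these were 2.87 ± 0.15 and −2.04 ± 0.09. Of 29 genes listed as other negative regulators of receptor and RAS signalling, 8 rose and 5 fell. FLRT3, an FGF receptor partner in this list that is not itself an inhibitor, rose most (2.58 ± 0.54, edgeR adjusted p = 0.0135). Its log2 fold change was 1.71 ± 0.09 without FT_1, and its adjusted p was 0.0606, 0.0636 and 0.0567 without WT_1, WT_2 or WT_3. The cytokine signalling inhibitor SOCS2 fell most (−1.62 ± 0.20, adjusted p = 0.00232, and −1.63 ± 0.19 without FT_1). Without FT_1, 13 genes of this list rose and 11 fell, without any other single library 5–8 rose and 2 fell, and limma on log2(FPKM + 1) gave 7 and 8.

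Many members have short-lived transcripts, and of 15 genes that control the decay of such transcripts 6 rose and 1 fell (median log2 fold change 0.19), with 1–6 rises without 1 library, fewest without WT_2, and 3 falls without FT_1. This balance depended on the setting. RLE scaling gave 6 rises and 1 fall, and upper-quartile scaling 5 and 1. In contrast, library totals and limma on log2(FPKM + 1) each gave 2 rises and 3 falls, and removing the gene length trend gave 2 and 2. ZFP36, which binds AU-rich elements and promotes decay, rose by 1.65 ± 0.37 (adjusted p = 0.0168), from 9.44–11.7 FPKM in WT to 14.5, 36.3 and 36.6 in FT libraries, and was not called without FT_2, WT_1, WT_2 or WT_3 (0.0505, 0.0735, 0.072 and 0.0562). HNRNPD, another protein that binds AU-rich elements, fell (log2 fold change −0.69 ± 0.09, adjusted p = 0.00298). Without FT_1 these were 1.98 ± 0.09 and −0.69 ± 0.08. Whether decay of the members' transcripts differed was not tested.

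**Figure D4:**
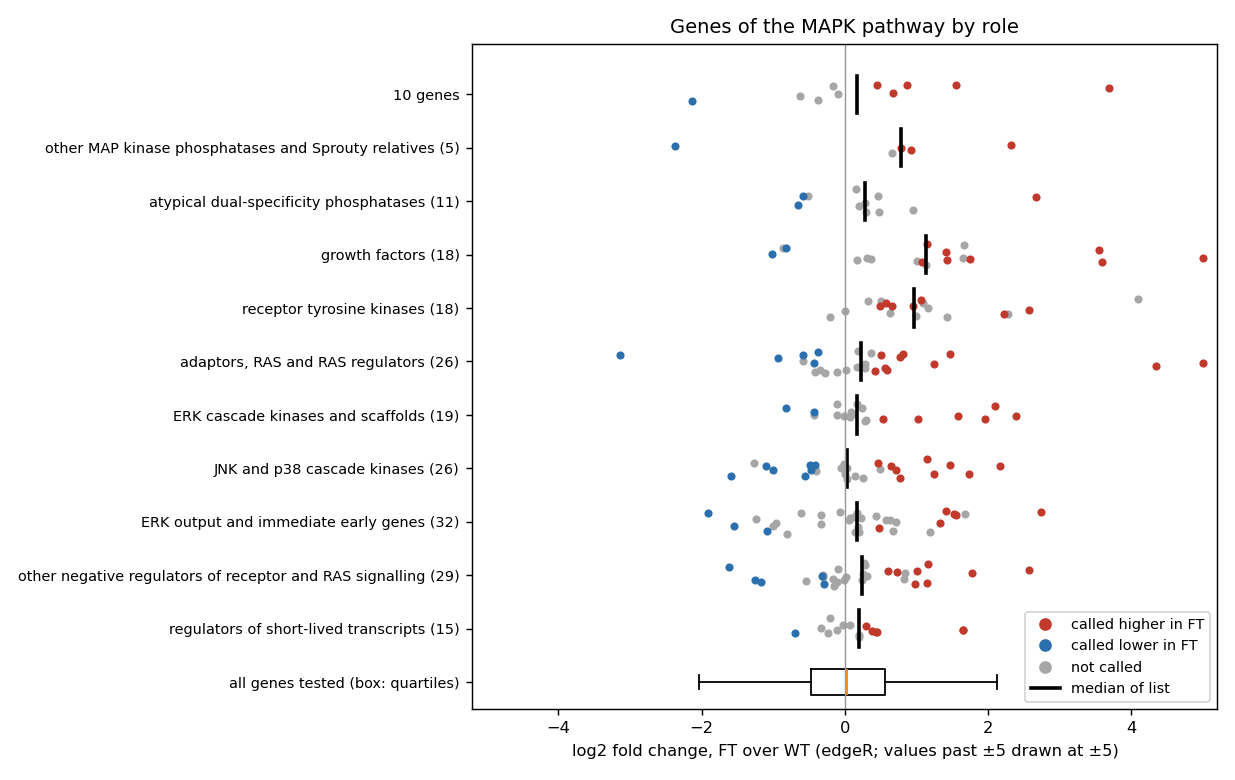
Log2 fold change of FT over WT (horizontal axis) of each tested gene by role list, with genes called higher in FT in red, called lower in blue and not called in grey, list medians as black lines, and a box of the quartiles of all genes tested. The list medians run from 0.03 for JNK and p38 cascade kinases to 1.14 for growth factors, and the 10 genes have a median of 0.17.

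Across the 6 libraries, which share the split into groups and the place of FT_1, the genes most like DUSP6 in log2 count rate among 11773 genes were SNRPC (Pearson's r = 0.996), FOSL1 and FKBP5 (both 0.994). Those most like SPRY2 were CCNJ (0.993), EXOSC6 (0.976) and EXOSC3 (0.973). FOSL1, an AP-1 gene induced by ERK, belonged to the lists above and was not called with all libraries (log2 fold change −1.24, adjusted p = 0.0649), but was without FT_1 (−1.90 ± 0.12, adjusted p = 1.17e-06) and, with all libraries, by DESeq2 (adjusted p = 0.00857) and limma (0.0257–0.0402).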

How the data were processed

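Poly(A) RNA from 3 FT and 3 WT bEF samples was sequenced, 1 library each. The authors aligned reads with HISAT, merged transcripts and obtained expression values from StringTie and edgeR; the submitters' notes name HISAT2 2.0, StringTie 1.3.0, Bowtie 0.12.2 and the build mm8, a mouse build that cannot be that of these cattle genes. The deposited table holds raw counts per gene and FPKM values (fragments scaled by gene length and library total) for chromosomes 1 to 29; strand setting and the handling of shared reads are not stated. The members and the lists were chosen with earlier results of these data known. Genes were matched by symbol, and NRG1 has 2 rows, of which the row with more counts was used.

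The counts were fitted in edgeR 4.0.16 (R 4.3.3) with TMM scaling, filterByExpr and the quasi-likelihood test, with Benjamini-Hochberg adjustment over all genes tested, because the table holds counts and the study's methods name edgeR. The SE of a log2 fold change is its size divided by the square root of the F statistic. FPKM served for levels between genes. Fold changes come from the scaled counts and so differ somewhat from ratios of mean FPKM. The TMM factors, which FPKM lacks, were 0.934–0.968 in FT and 1.05–1.06 in WT libraries. FPKM thus sets FT libraries lower against WT libraries than the scaled counts do. Statements that libraries did or did not overlap refer to FPKM unless scaled counts are named. With 3 libraries a group, the smallest p that an exact permutation test allows is 0.10. Alternatives were other scalings (RLE, upper quartile, library totals), filters, DESeq2 1.42.0, limma 3.58.1 on log2(FPKM + 1) or log2(FPKM + 0.1) with a mean FPKM of at least 0.5 or no filter, other thresholds, a gene length trend, a replicate block and leaving out each library. The code was tested on simulated data. By rule, the named genes are the members, their tested relatives, and in each other role list up to 2 largest rises and falls among called genes whose groups did not overlap, and the most abundant gene; of these, the largest rise and fall of each list are described. Also named are the most abundant gene of each marker list and the 3 genes most like DUSP6 and SPRY2. MAPK3 falls outside this rule and was named after its values were seen. A planned search of promoter and protein sequences was not run, since no sequence tables were supplied for this series.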

Additional observations from a re-analysis of the deposited data

How the results depend on the processing

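No member changed direction in any of the 19 alternatives in which it was tested, which the choice of members partly fixes. Over the members' fold changes, 157 stayed on their side of the threshold, 9 passed it newly and 21 no longer passed it; over the other named genes these were 940, 41 and 126, and 2 reversed. Reversals count only values called in the new direction, and were CCN2 (log2 fold change −0.25) and ERG (−1.10) without FT_1; over the left-out libraries they ran from −0.25 to 0.98 and from −1.10 to 1.71. S100B, EXOSC6 and EXOSC3 also crossed 0 but were not called there (up to 0.12, 0.06 and 0.09). With library totals only or with the gene length trend removed, 2 members were called lower, beside 3394 and 2553 of all genes. limma on log2(FPKM + 1) and on log2(FPKM + 0.1) each called 3 members higher and 3 lower, beside 1837 and 1880 of all genes higher and 3573 and 3529 lower. Without a filter limma called 3 and 2 members, with 1744 of all genes higher and 3622 lower. The study's threshold gave 1378 and 1208 of all genes, 2 members higher, and 40 and 14 genes of the role lists; adjusted p with a 2-fold change gave 1131 and 1019, 2 members higher, and 39 and 11. Leaving out 1 library gave 1516–4215 genes higher and 1531–4337 lower, 2–5 and 1–3 members, and 34–92 and 14–53 genes of the role lists, with the extremes without FT_1, WT_1 and WT_2; apart from the smaller number of libraries, the cause was not tested. In the replicate block, 1838 and 1741 of all genes, 4 and 1 members and 52 and 21 genes of the role lists were called, although equal replicate numbers are different fetuses and did not correlate (r from −0.0256 to 0.0365). Depth limits DUSP4 most, with 2–12 counts in WT libraries.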
